A study of Mus musculus with 12 samples.

Results

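The genes described here are the axon guidance ligands and receptors of the tibialis anterior, a mainly fast-twitch muscle of the lower hind limb: the Eph receptors and ephrins, the semaphorins with their plexin and neuropilin receptors, the netrins and Unc5 receptors, and the Slits and Robos. Members were taken by gene symbol alone, and 69 of the 23923 genes in the files matched. Of these, 68 encode proteins, and the last, Plxna4os1, is an antisense RNA to Plxna4. RNA was sequenced from 12 mice aged 6 weeks, 6 controls and 6 Smyd1 conditional knockouts (CKOs), with 1 library from each mouse. The study states that, after its comparison of the sexes, it used male tissues only, and the sequencing is among those later experiments. Smyd1 encodes a lysine methyltransferase of striated muscle. All mice were of the strain C57BL6/J;129S1/SvImJ and carried 1 Myf6 cre allele (Myf6 cre/+) and, per the methods of the study, 1 Rosa26 YFP reporter allele. Controls were Smyd1 flox/+ and CKOs Smyd1 flox/-, so that CKOs inherited 1 Smyd1 null allele in all cells and controls inherited none. Because controls carried Cre too, it can also delete their 1 flox allele in myofibers. In Myf6 cre, Cre is made from the Myf6 transcript and therefore acts in differentiated myofibers, whereas the RNA came from whole muscle with its vessels, nerves, connective tissue and satellite cells.

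Axon guidance molecules were first described as cues that attract or repel growing axons. Ephrins are membrane-bound ligands of the Eph receptor tyrosine kinases, and signal in both directions where cells touch. Semaphorins act through plexins, and most secreted class 3 semaphorins need a neuropilin as co-receptor. Netrins bind Dcc, neogenin and Unc5 receptors, and Slits bind Robos. In muscle the same families are known from motor axon pathfinding, the neuromuscular junction, blood vessels and satellite cells.

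FPKM, the number of fragments divided by transcript length and by the mapped reads of the sample, allows levels to be compared between genes. Most guidance genes were present at low levels. Only 15 of the 69 had a mean of at least 1 FPKM over the 12 mice, and only Sema3c and Nrp1 had at least 5. A total of 51 members were above 0 in all 12 mice, while Epha8 and Epha10 were listed at 0 in every mouse. An exact 0 in these files can be a failed estimate, since Ttn, the giant sarcomere protein titin, was listed at 0 in some mice and at 639 to 871 FPKM in the others, but no tested member was at 0 in any mouse. A gene was compared between the groups only if 6 or more of the 12 mice reached 0.1 FPKM, which 42 members met and 27 did not. Of the 27 left out, 26 had a mean under 0.1 FPKM and the other, Slit2, was above 0.1 FPKM in 4 samples. Sema3e, with a 12-sample mean of 0.0994 FPKM, met the filter mainly through the CKOs, since 5 CKOs but only 1 control were above it.

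Sema3c, a secreted class 3 semaphorin, was the most abundant member. It ranged from 7.36 to 16.2 FPKM in controls with a median of 9.03, and from 10.3 to 14.9 in CKOs with a median of 12. Nrp1, the co-receptor that class 3 semaphorins share with vascular endothelial growth factor, ranged from 5.86 to 9.72 FPKM in controls (median 7.48) and from 6.85 to 10.7 in CKOs (median 8.54). Sema3c exceeded Nrp1 in 11 of the 12 mice. Nrp1 in turn exceeded the third member, the transmembrane semaphorin Sema6c (12-sample mean 3.18 FPKM), in all 12 mice. Sema6c exceeded Sema6d, another transmembrane semaphorin (mean 2.27 FPKM), in 11 of 12. Below this the order was not resolved. Sema6d, Nrp2, Efna1, Plxnd1, Sema4d, Efnb2, Ntn4, Plxna2 and Ephb4 had means between 2.27 and 1.57 FPKM, and neighbors in this order stood in it in only 5 to 8 of the 12 mice.

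Neuropilins, netrins, Slits and Robos were each dominated by a single member, and other families were more even. Neuropilins were the family with the second highest summed level, of which Nrp1 made up 80.8% ± 3.92 (SD, n = 6) in controls and 79.7% ± 3.4 in CKOs. Sema3c made up 41.7% ± 7.91 of the summed semaphorin FPKM in controls and 45.1% ± 4.35 in CKOs. The highest plexin, Plxnd1, made up 29.7% ± 5.79 of the plexins in controls and 30.3% ± 6.72 in CKOs. Ephb4 made up 39.6% ± 5.55 and 39.1% ± 5.34 of the Eph receptors. Among the ephrins, Efna1, an ephrin-A tethered by a lipid anchor, ranged from 0.707 to 2.80 FPKM in controls and from 1.14 to 3.46 in CKOs. Efnb2, the transmembrane ephrin of arteries, ranged from 0.857 to 2.43 in controls and from 1.31 to 2.13 in CKOs. Its venous receptor Ephb4 was the highest of the Eph receptors, with 1.5 ± 0.199 FPKM in controls and 1.64 ± 0.383 in CKOs. Robo4, the endothelial Robo, made up 74.8% ± 8.42 of the summed Robo FPKM in controls and 73.6% ± 6.58 in CKOs. Ntn4, a netrin of basement membranes, made up 76.1% ± 3.27 of the netrins in controls. Slit3 made up 87.0% ± 7.59 of the Slits. Unc5 receptors were the lowest family, with a summed level between 0.274 and 0.601 FPKM in controls and between 0.206 and 0.483 in CKOs. The endothelial markers Pecam1, Cdh5, Kdr, Tek and Emcn summed to 26.9 to 40.8 FPKM in controls and 27 to 45.2 in CKOs, and the groups overlapped.

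**Figure D1:**
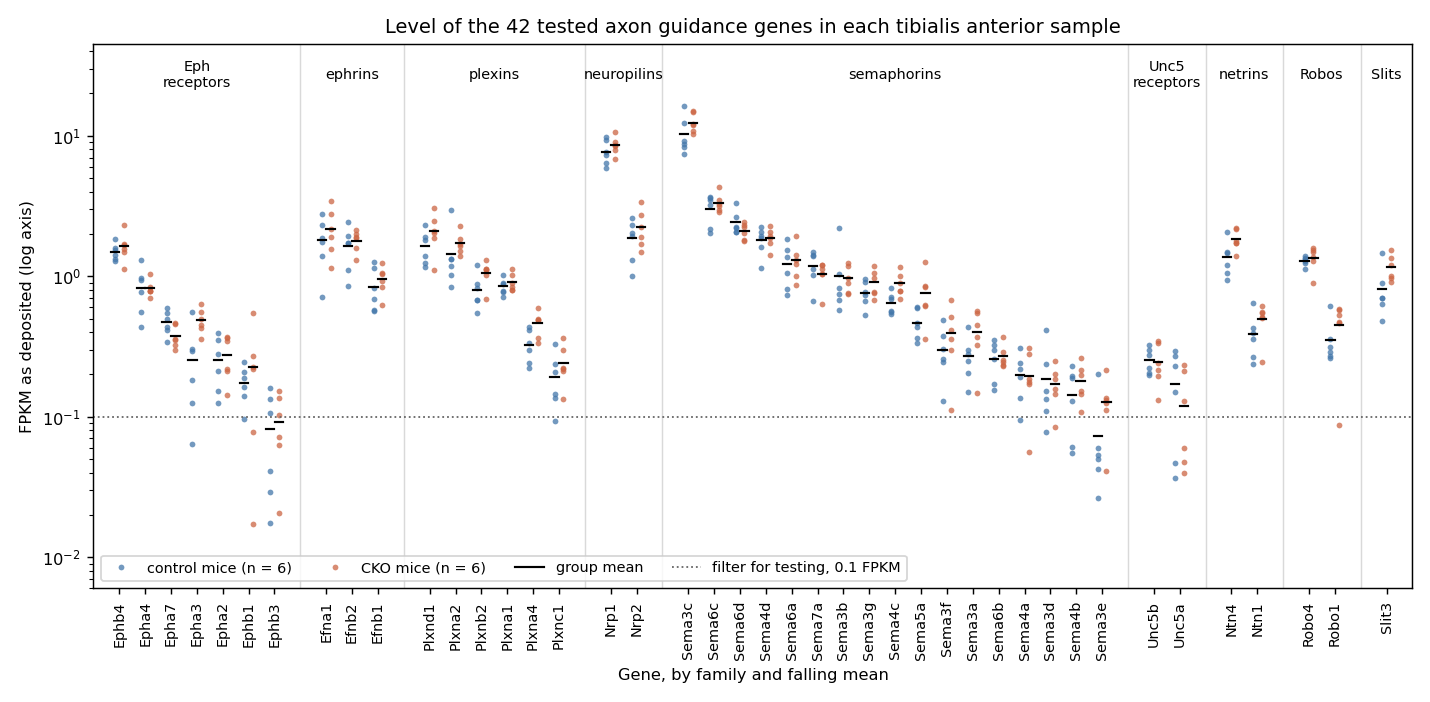
FPKM as deposited (log axis) of the 42 tested guidance genes, by family and falling mean, with each of the 6 control and 6 CKO mice as a point and the group mean as a bar. Sema3c and Nrp1 stand above all other members, and control and CKO points overlap for every gene.

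Whether the loss of Smyd1 from myofibers moved these genes was asked with limma on log2(FPKM + 0.1), fitted over all 12695 genes that met the filter. No member passed an adjusted P of 0.05 in either direction on the values as deposited. At that threshold 2.02% of all genes tested were higher and 0.268% were lower in CKOs. At the unadjusted threshold of 0.05, 5 of the 42 members were higher in CKOs, namely Epha3, Ntn4, Sema4c, Sema5a and Slit3, and no member was lower. Among all genes tested, 18.1% were higher and 1.76% lower, so that the share of members called was not above the background. Of the 42 log2 fold changes 35 were positive, and their median was 0.19 with a median standard error of 0.22. The median over all genes tested was 0.18, and 77.9% of them were positive.

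Median-ratio scaling, which divides each sample by its median ratio to a common reference, took away this upward shift and brought the median of all genes to 0.01. After scaling, the members' median was 0.02, with 23 positive and 19 negative log2 fold changes. Again no member passed the adjusted threshold, where 0.764% of genes were on the higher and 0.709% on the lower side. At the unadjusted threshold Epha3 was higher, and Epha7 and Sema6d were lower, against a background of 6.66% and 7.41%. On neither scale did any member have all 6 CKO values above or all below the 6 control values. This was the case for 2.23% (higher) and 0.189% (lower) of all genes as deposited, and for 0.788% and 0.74% after scaling. Epha3 was thus the only member past the unadjusted threshold on both scales.

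**Figure D2:**
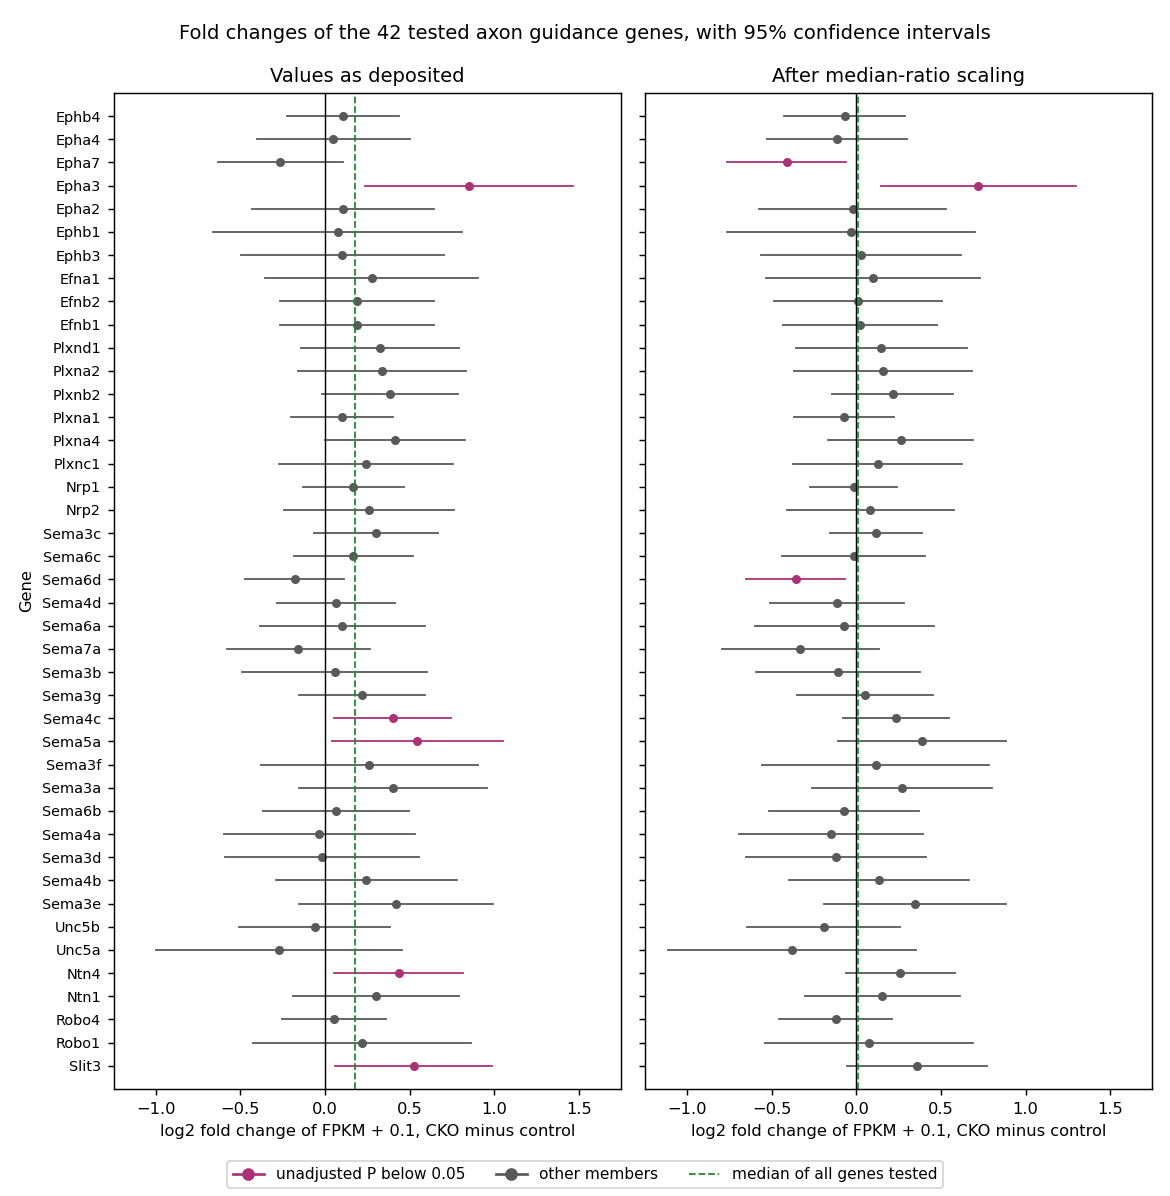
Log2 fold changes of FPKM + 0.1 (CKO minus control) of the 42 tested guidance genes with 95% confidence intervals, as deposited on the left and after median-ratio scaling on the right. The dashed lines mark the medians of all genes tested, 0.18 and 0.01. Epha3 is the single gene colored for an unadjusted P below 0.05 on the same side in both panels.

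Control 1 stood apart from the other samples and bears on several of these values. As deposited it was the highest control for 13 of the 42 members and for 44.7% of all genes tested. After scaling it was the highest for 11 members and for 26.0% of all genes. The sum of the fibroblast and fibro-adipogenic progenitor markers Pdgfra, Col1a1, Dcn, Lum and Pi16 was 407 FPKM in control 1, against 118 to 160 in the other controls and 157 to 230 in CKOs. Its adipocyte (307.5 FPKM), macrophage (36.0 FPKM) and tenocyte (54.9 FPKM) marker sums were also the highest of the 12. So were, as deposited, its myofiber (21710 FPKM) and its smooth muscle and pericyte (83.5 FPKM) sums. Its Schwann cell sum (3.88 FPKM) was the lowest of the 12. The adipocyte sum was almost all Fabp4 (99.1% ± 0.153 in controls). None of the other adipocyte markers, Adipoq, Plin1, Cfd and Cidec, was highest in control 1. Adipoq and Cfd were at 0.526 and 1.80 FPKM in control 1, against 1.44 and 4.87 in CKO 1. Without control 1, Epha3, Ntn4 and Slit3 passed the adjusted threshold as deposited, with adjusted P of 0.0206, 0.0424 and 0.0284. In that fit 8.4% of all genes were higher at the adjusted threshold. At the unadjusted threshold 8 members were then higher, Plxnb2, Sema3c and Sema3e being added to the 5, against 27% of all genes. With scaling and without control 1, Epha3, Ntn4 and Slit3 were higher and Epha7 and Sema6d lower by unadjusted P, against a background of 8.68% and 9.01%. None of these 5 passed the adjusted threshold, as 1.42% of genes did on the higher and 1.43% on the lower side. As deposited, the fibroblast marker sum of all 6 CKOs lay above the control median of 147.7 FPKM, whereas after scaling CKO 5 (144.8) was below the control median (158.3 scaled FPKM). Dcn made up 52.8% ± 3.83 of this sum in controls and 58.4% ± 4.55 in CKOs. The 5 markers did not all move the same way. On both scales 4 had positive log2 fold changes, and Col1a1 had negative ones (-0.21 as deposited and -0.40 after scaling). The part of these markers in the members' values was not tested, and in whole muscle more cells of a type cannot be told apart from more RNA per cell.

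**Figure D3:**
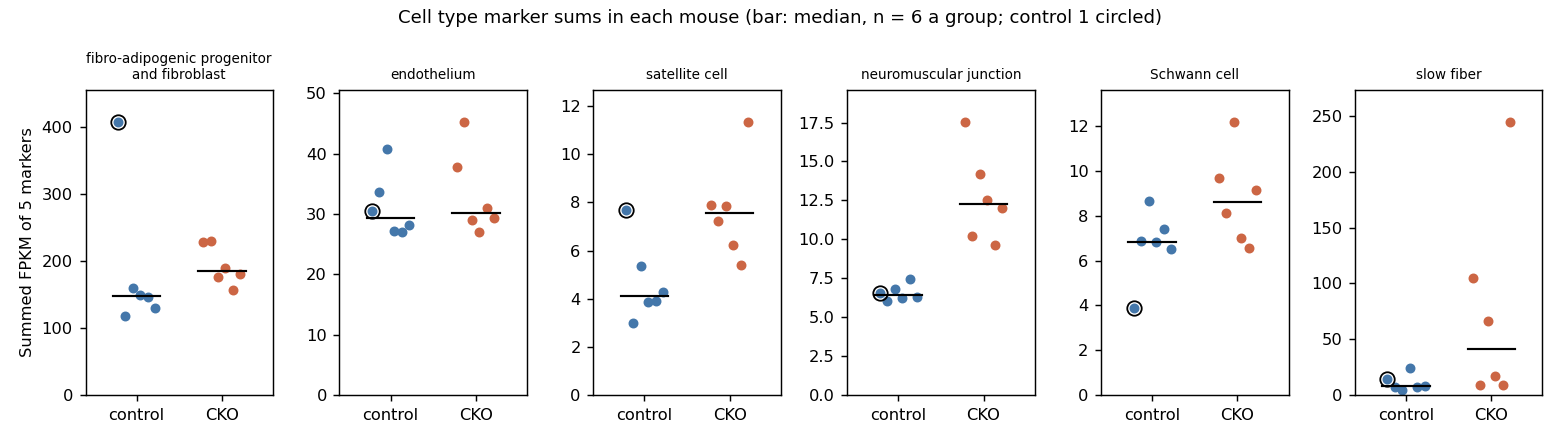
Summed FPKM of 5 markers of each cell type, or of the neuromuscular junction, one point per mouse, with the median of the 6 controls and the 6 CKOs as a bar and control 1 circled. Control 1 has the highest fibroblast sum, 407 FPKM, and the neuromuscular junction sums of the groups do not overlap (6.03 to 7.47 FPKM in controls, 9.66 to 17.5 in CKOs).

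Among the Eph receptors, Epha3, a receptor for ephrin-A ligands, had the largest log2 fold change of the members. It ranged from 0.0643 to 0.558 FPKM in controls with a median of 0.239, and from 0.355 to 0.631 in CKOs with a median of 0.474. All 6 CKOs were above the control median, and 5 of the 6 controls, all but control 1, were below the lowest CKO as deposited. The mean was 0.254 ± 0.176 FPKM in controls and 0.486 ± 0.0980 in CKOs, a 1.91-fold ratio. After scaling, Epha3 in control 6 (0.339) was also above the lowest CKO (0.322 scaled FPKM). Its log2 fold change was 0.85 (SE 0.29, adjusted P = 0.129) as deposited and 0.72 (SE 0.27, adjusted P = 0.229) after scaling. It stayed past the unadjusted threshold in each fit that left out a single mouse. Without control 1 the log2 fold change was 1.06. Epha3 is a low gene, above only 17.6% of the genes tested by mean FPKM, and on the log2(FPKM + 0.1) scale the change of a low gene is understated.

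Epha7, another receptor for ephrin-A ligands, went the other way. It ranged from 0.342 to 0.591 FPKM in controls with a median of 0.465, and from 0.298 to 0.466 in CKOs with a median of 0.352. Of the 6 CKOs, 1 was above the control median. As deposited, the log2 fold change was -0.26 (SE 0.17, adjusted P = 0.401) and did not pass the unadjusted threshold. After scaling, controls ranged from 0.401 to 0.645 and CKOs from 0.288 to 0.444 scaled FPKM, all 6 CKOs were below the control median, and the log2 fold change was -0.41 (SE 0.16, adjusted P = 0.266). The other tested Eph receptors were Ephb4, Epha4, Epha2, Ephb1 and Ephb3. Their log2 fold changes lay between 0.05 and 0.11 as deposited. Epha4, a receptor for both ephrin classes that is known from motor axon guidance, had 0.830 ± 0.314 FPKM in controls and 0.821 ± 0.116 in CKOs. Its log2 fold change was 0.05 as deposited and -0.12 after scaling, both within 1 standard error (0.21 and 0.19). Of the 3 tested ephrins (Efna1, Efnb2 and Efnb1) none passed a threshold, with log2 fold changes of 0.19 to 0.27 as deposited and 0.01 to 0.10 after scaling.

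The 17 tested semaphorins held 2 of the 5 members higher as deposited. Sema4c, a transmembrane semaphorin that binds plexin-B2, ranged from 0.537 to 0.826 FPKM in controls (median 0.625) and from 0.691 to 1.17 in CKOs (median 0.844). All 6 CKOs were above the control median, and 3 were above the highest control. The log2 fold change was 0.40 (SE 0.16, adjusted P = 0.189), and 0.23 (SE 0.15, adjusted P = 0.526) after scaling, no longer past the unadjusted threshold. Sema5a, a transmembrane semaphorin with thrombospondin repeats, ranged from 0.336 to 0.606 FPKM in controls (median 0.448) and from 0.357 to 1.26 in CKOs (median 0.731). Here 5 of the 6 CKOs were above all controls, and CKO 5 was below the control median. The log2 fold change was 0.54 (SE 0.24, adjusted P = 0.217), and 0.39 (SE 0.23, adjusted P = 0.500) after scaling.

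Sema6d, a transmembrane semaphorin that binds plexin-A1, was lower only after scaling. As deposited it ranged from 2.06 to 3.32 FPKM in controls (median 2.22) and from 1.79 to 2.45 in CKOs (median 2.14), with a log2 fold change of -0.18 (SE 0.14, adjusted P = 0.470). After scaling, controls ranged from 1.85 in control 1 to 3.26, and CKOs from 1.68 to 2.38 scaled FPKM. All 5 other controls were then above all 6 CKOs, the next lowest control being at 2.41. The scaled log2 fold change was -0.36 (SE 0.14, adjusted P = 0.239), and -0.44 (adjusted P = 0.0747) without control 1. The abundant Sema3c had a log2 fold change of 0.30 (SE 0.17, adjusted P = 0.344), and 0.11 (SE 0.13) after scaling. All 6 of its CKO values were above the control median on both scales. Over the 7 secreted class 3 semaphorins the median log2 fold change was 0.26 as deposited and 0.11 after scaling. Over the 10 tested members of classes 4 to 7 it was 0.08 and -0.07.

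The receptors of the semaphorins showed no call on either scale. All 8 tested plexins and neuropilins had positive log2 fold changes as deposited, from 0.10 to 0.41 with a median of 0.29. After scaling 6 were positive and the median was 0.14. Plxnd1, an endothelial plexin that binds Sema3e, ranged from 1.17 to 2.33 FPKM in controls and from 1.10 to 3.08 in CKOs, with a log2 fold change of 0.32 (SE 0.22, adjusted P = 0.416). Plxna2, a receptor for class 3 and class 6 semaphorins, ranged from 0.838 to 2.97 FPKM in controls and from 1.39 to 2.26 in CKOs. The value of 2.97 belonged to control 6, and the next highest control was at 1.32, below every CKO as deposited. After scaling, control 5 (1.45) was above CKO 2 (1.36) and CKO 5 (1.39 scaled FPKM). With all samples the log2 fold change of Plxna2 was 0.34 (SE 0.23, adjusted P = 0.424) as deposited. Without control 6 it was 0.56 (adjusted P = 0.120) and past the unadjusted threshold. Nrp1 and Nrp2, which also bind vascular endothelial growth factors, had log2 fold changes of 0.17 (SE 0.14) and 0.26 (SE 0.24), and of -0.02 (SE 0.12) and 0.08 (SE 0.23) after scaling.

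Ntn4 ranged from 0.935 to 2.07 FPKM in controls with a median of 1.33, and from 1.40 to 2.21 in CKOs with a median of 1.76. All 6 CKOs were above the control median, and the highest control was control 1. The log2 fold change was 0.43 (SE 0.18, adjusted P = 0.194), and 0.26 (SE 0.15, adjusted P = 0.483) after scaling. Ntn1, the netrin of the floor plate, had 0.389 ± 0.146 FPKM in controls and 0.497 ± 0.129 in CKOs, with a log2 fold change of 0.30 (SE 0.23, adjusted P = 0.469). Both tested Unc5 receptors had negative log2 fold changes and neither passed a threshold. Unc5b, known from endothelium, had a log2 fold change of -0.06 (SE 0.21, adjusted P = 0.898), and Unc5a, a neuronal receptor, one of -0.27 (SE 0.34, adjusted P = 0.676).

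Slit3 ranged from 0.478 to 1.46 FPKM in controls with a median of 0.699, and from 0.903 to 1.53 in CKOs with a median of 1.10. Control 1 held the value of 1.46, and the 5 other controls were all below the lowest CKO as deposited. The log2 fold change was 0.52 (SE 0.22, adjusted P = 0.197), and 0.36 (SE 0.19, adjusted P = 0.440) after scaling. Control 5 was then at 0.972 scaled FPKM, above CKO 2, CKO 3 and CKO 5 (0.833 to 0.950). Slit2, which was too low to be tested, ranged from 0.00866 to 0.137 FPKM in controls and from 0.0505 to 0.396 in CKOs. The receptor Robo1 ranged from 0.262 to 0.611 FPKM in controls and from 0.0870 to 0.580 in CKOs, with a log2 fold change of 0.22 (SE 0.30, adjusted P = 0.712). Robo4 had 1.29 ± 0.0916 FPKM in controls and 1.36 ± 0.252 in CKOs, with a log2 fold change of 0.05 (SE 0.14, adjusted P = 0.861) and a 95% confidence interval of -0.25 to 0.36.

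**Figure D4:**
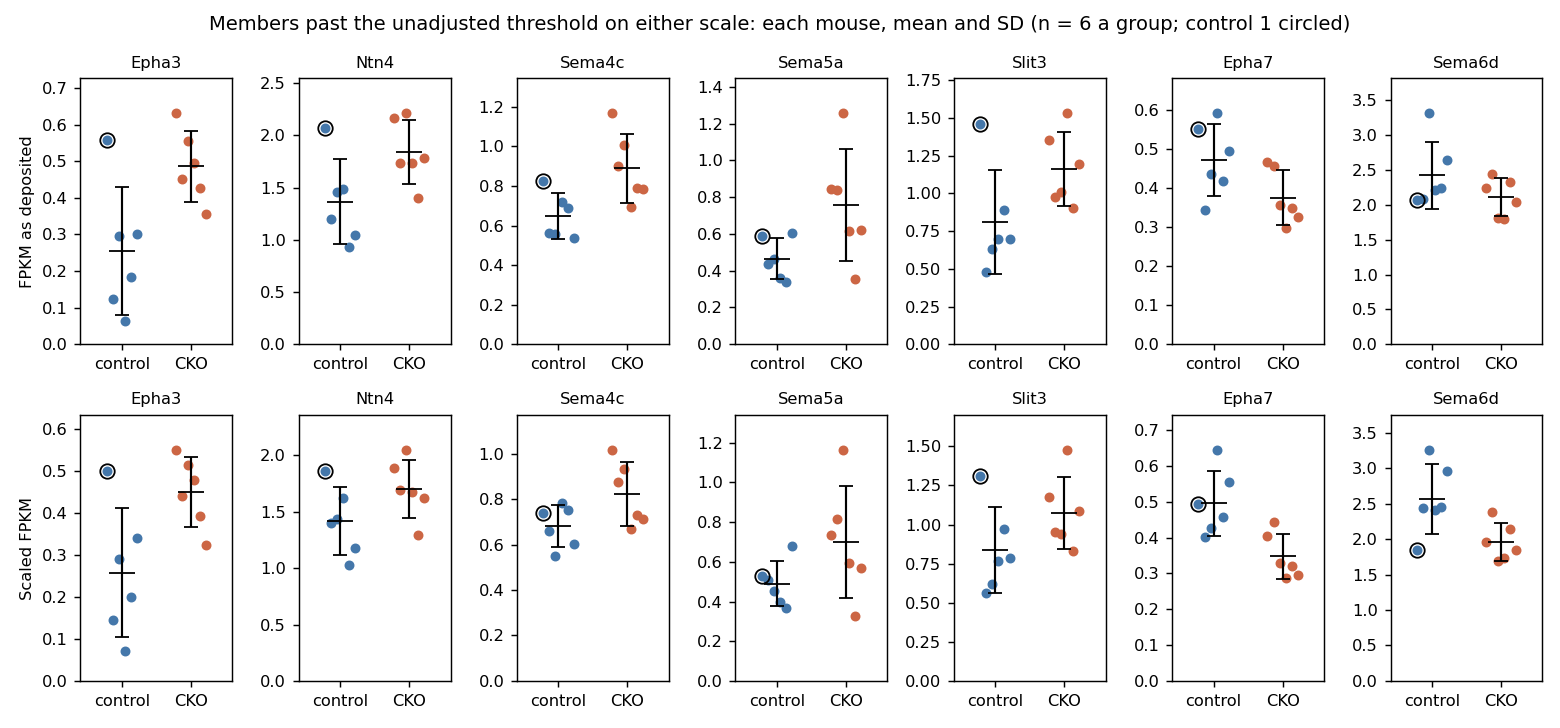
Each mouse, with the group mean and SD (n = 6 a group), for the 7 guidance genes past the unadjusted threshold on at least one scale, as deposited (FPKM) in the upper row and after median-ratio scaling in the lower row, with control 1 circled. In Epha3, Ntn4 and Slit3 control 1 is the highest control, at 0.558, 2.07 and 1.46 FPKM, and lies among the CKOs.

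Apart from that of Epha3, the calls at the unadjusted threshold as deposited depended on single mice. Ntn4 missed it without control 2, control 5, control 6, CKO 1 or CKO 3, with log2 fold changes of 0.34 to 0.41 and adjusted P of 0.312 to 0.353. Slit3 missed it without control 2, control 3, control 4, control 6, CKO 1 or CKO 4 (0.41 to 0.50). Sema4c missed it without control 2, control 3, control 6, CKO 1 or CKO 3 (0.32 to 0.37). Sema5a missed it without control 2, control 3, control 4, control 5, CKO 1, CKO 2 or CKO 3 (0.40 to 0.55). The number of members higher at this threshold was thus 1 without control 2 and 10 without CKO 5. Without CKO 5 the added members were Ntn1, Plxnb2, Plxnd1, Robo1 and Sema3a, with log2 fold changes of 0.45 to 0.59. CKO 5 was the lowest CKO for 15 of the 42 members and for 22.9% of all genes tested. Plxna4 crossed the threshold without control 4, control 5, CKO 1 or CKO 2 (0.47 to 0.48).

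The promoter sequences of Epha3, Epha7 and Sema6d are shown because these 3 genes were past the unadjusted threshold after scaling. RefSeq promoter windows (GRCm38.p6) of 300 bases, 250 before and 50 after the start site, were found for 59 of the 69 members. They were searched on both strands for the E-box CANNTG, the letters that Myf6 and the other myogenic factors bind, and for its form CAGCTG. Both patterns are palindromes, so that 1 strand covers both, and every match of the second is also a match of the first. The general motif was present in 50.7% of the 75 windows of the members and in 72.3% of the 32851 windows of all genes, and the specific form in 16% and 16.3%, respectively. The members' windows had a median GC content of 64.3%, against 52.7% for all. The window of Epha3 lies at chr16:63864126-63864425 on the minus strand and holds no such motif. Epha7 has 2 overlapping windows on the plus strand, chr4:28812881-28813180, which is shown, and chr4:28812895-28813194, and neither holds the motif. Sema6d also has 2 windows on the plus strand. The upstream window at chr2:124089719-124090018 holds CACGTG at position -23 from the start site. The downstream window at chr2:124653331-124653630 holds CAAATG at -220 and CAGGTG at -190. Capitals mark the E-box letters, and the sequences run 5′ to 3′ on the strand of the gene.
Epha3: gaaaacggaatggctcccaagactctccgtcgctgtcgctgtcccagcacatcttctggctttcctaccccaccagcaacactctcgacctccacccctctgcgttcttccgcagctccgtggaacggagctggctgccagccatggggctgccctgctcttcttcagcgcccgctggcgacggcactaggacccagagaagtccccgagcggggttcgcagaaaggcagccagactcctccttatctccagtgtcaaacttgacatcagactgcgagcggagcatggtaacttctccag
Epha7: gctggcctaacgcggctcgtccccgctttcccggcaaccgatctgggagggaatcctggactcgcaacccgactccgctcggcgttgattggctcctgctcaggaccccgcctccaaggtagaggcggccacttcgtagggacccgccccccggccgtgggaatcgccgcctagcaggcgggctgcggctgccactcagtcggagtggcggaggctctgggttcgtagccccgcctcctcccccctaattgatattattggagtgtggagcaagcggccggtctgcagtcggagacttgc
Sema6d, upstream: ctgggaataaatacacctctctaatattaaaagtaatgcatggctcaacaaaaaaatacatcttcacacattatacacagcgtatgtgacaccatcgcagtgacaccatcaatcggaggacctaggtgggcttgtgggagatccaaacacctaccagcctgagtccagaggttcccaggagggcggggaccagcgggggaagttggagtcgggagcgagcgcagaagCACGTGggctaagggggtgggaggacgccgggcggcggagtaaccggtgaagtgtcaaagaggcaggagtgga
Sema6d, downstream: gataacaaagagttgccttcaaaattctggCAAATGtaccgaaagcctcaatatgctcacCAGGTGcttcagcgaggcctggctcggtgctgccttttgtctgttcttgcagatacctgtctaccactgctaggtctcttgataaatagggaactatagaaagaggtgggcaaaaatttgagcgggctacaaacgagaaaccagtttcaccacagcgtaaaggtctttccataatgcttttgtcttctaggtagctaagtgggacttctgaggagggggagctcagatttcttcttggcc

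Co-receptors, effectors and further ligands and receptors linked to guidance were described from a broad list of 70 genes in the files, of which 58 were tested. All are called effectors below for short. As deposited, 15 passed the unadjusted threshold on the higher side and 2 on the lower side, against 18.1% and 1.76% of all genes, and Pak1 was higher and Mical2 lower at the adjusted threshold. After scaling, 6 were higher and 6 lower, against 6.66% and 7.41% of all genes. Pak1 and Mical2 were again past the adjusted threshold, as 0.764% and 0.709% of all genes were on the higher and the lower side. Pak1, a kinase activated by Rac and Cdc42, ranged from 3.91 to 6.13 FPKM in controls and from 6.82 to 11.5 in CKOs, without overlap. Its log2 fold change was 0.94 (SE 0.13, adjusted P = 0.00251), and 0.76 (SE 0.12, adjusted P = 0.00493) after scaling, and it passed the adjusted threshold without each of the 12 mice in turn. Mical2, a monooxygenase that oxidizes actin, ranged from 5.41 to 7.82 FPKM in controls and from 3 to 5.19 in CKOs, also without overlap. Its log2 fold change was -0.68 (SE 0.16, adjusted P = 0.0390), and -0.87 (SE 0.17, adjusted P = 0.0195) after scaling. It passed without control 1, CKO 4 or CKO 5, and missed without each of the 9 other mice, with adjusted P of 0.0513 to 0.105. Neo1, the netrin receptor neogenin, had 3.59 ± 0.385 FPKM in controls and 4.99 ± 0.668 in CKOs, with a log2 fold change of 0.46 (SE 0.12, adjusted P = 0.0507), and 0.28 (SE 0.11, adjusted P = 0.274) after scaling. Flrt2, a membrane ligand of Unc5 receptors, had 0.990 ± 0.270 and 1.69 ± 0.356 FPKM, with a log2 fold change of 0.73 (SE 0.19, adjusted P = 0.0582), and 0.56 (SE 0.17, adjusted P = 0.131) after scaling. Enah, an actin regulator, had 2.66 ± 0.296 and 4.03 ± 0.978 FPKM, with a log2 fold change of 0.56 (SE 0.14, adjusted P = 0.0567), and 0.37 (SE 0.14, adjusted P = 0.240) after scaling. Lack of overlap as deposited was not particular to Pak1 and Mical2. Neo1, Enah and Gpc1, also of this list, had all CKO values above all control values. Among all genes tested, 2.23% had all CKO values higher and 0.189% all lower. Without control 1, Neo1, Flrt2 and Enah passed the adjusted threshold as deposited, with adjusted P of 0.0354, 0.0152 and 0.0376. In that fit 8 effectors, Pak1 and these genes among them, were higher at the adjusted threshold, against 8.4% of all genes tested.

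Markers of myofibers, of the neuromuscular junction, and of other cells of the muscle were summed in each mouse. As a background for the marker calls, unadjusted P put 18.1% of all genes on the higher side as deposited and 6.66% after scaling. With adjusted P these shares were 2.02% and 0.764%. The neuromuscular junction markers Chrna1, Chrne, Chrnd, Musk and Ache summed to 6.03 to 7.47 FPKM in controls and 9.66 to 17.5 in CKOs, with 4 of 5 higher at the adjusted threshold as deposited and 2 of 5 after scaling. The satellite cell markers Pax7, Myf5, Calcr, Chodl and Vcam1 summed to 3 to 7.68 and 5.38 to 11.3 FPKM, with 5 of 5 higher at the unadjusted threshold as deposited and 3 of 5 after scaling. The Schwann cell markers summed to 3.88 to 8.65 and 6.54 to 12.2 FPKM, with 2 of 5 higher at the unadjusted threshold as deposited and none of 5 after scaling. None of the 5 endothelial markers and none of the 5 smooth muscle and pericyte markers passed the unadjusted threshold on either scale. No marker of any of these lists was at 0 in all mice. The part of the junction and of these cells in the members' values was not tested. The myofiber markers Acta1, Ckm, Myh4, Tnnt3 and Ttn summed to 14936 to 21710 FPKM in controls and 16173 to 20316 in CKOs, with only Ttn at 0 in some mice. After scaling the sums were 17479 to 21535 and 14608 to 19599. The 4 tested markers moved in opposite directions. By unadjusted P, Myh4 was higher (log2 fold change 0.77) and Acta1 lower (-0.33) as deposited. After scaling Myh4 (0.58) was higher, and Acta1 (-0.52) and Tnnt3 (-0.53) were lower. On the lower side stood 1.76% and 7.41% of all genes. The slow fiber markers summed to 4.10 to 23.9 FPKM in controls and 8.86 to 245 in CKOs, the 3 highest sums being those of CKO 6, CKO 1 and CKO 3, with 5 of 5 higher at the unadjusted threshold as deposited and 4 of 5 after scaling. Smyd1 itself ranged from 32.9 to 47.1 FPKM in controls and from 27.8 to 39.9 in CKOs. Its log2 fold change was -0.13 (SE 0.12, adjusted P = 0.545) as deposited and -0.315 (SE 0.083, adjusted P = 0.0801) after scaling. The value is for the whole gene and does not show single exons, so it does not check the labels. The relative depth of the samples differed by at most 1.79-fold, with control 1 set to 1 and group medians of 1.19 for controls and 1.24 for CKOs.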

How the data were processed

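RNA from the tibialis anterior of 6 control and 6 CKO mice was depleted of ribosomal RNA and sequenced. The authors mapped the trimmed reads by bowtie2 and tophat, kept uniquely mapped ones and made the deposited FPKM by cufflinks. The submitters' processing notes name TopHat2 2.0.10, Cufflinks 2.1.1 and mm9. Whether counting used strand is not given in the sources used here, so Plxna4 and Plxna4os1 cannot be told apart. Of 23950 rows per file, 27 with a date for a symbol were left out. The authors tested counts, which are not analysed here.

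FPKM were compared with limma 3.58.1 in R 4.3.3 (two-sided, intensity trend, no block) on log2(FPKM + 0.1), for the 12695 genes reaching 0.1 FPKM in 6 or more of the 12 samples. Adjusted P are those of limma with the Benjamini-Hochberg correction across these genes. Both thresholds were 0.05. The same fit was made after median-ratio scaling. The code was tested on simulated data.

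The members and lists were chosen with earlier results of these data known. Named are the members past the unadjusted threshold or without overlap on either scale, the 2 most abundant of each family, and from the effector list the genes past the adjusted threshold and the 5 with the smallest P. Members that crossed a threshold when a mouse was left out, markers, and the effector Gpc1 for its lack of overlap are named besides. The alternatives were scaling by median ratios, quantile normalization, no filter or one at 1 FPKM, 1 as the pseudocount, no trend, a replicate block, each mouse left out and, added after seeing that marker sums were highest in control 1, scaling without control 1. Read counts are unknown, so no interval covers counting error. Relative depth was estimated from the spacing of FPKM under 0.15.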

Additional observations from a re-analysis of the deposited data

Results flagged for a closer look

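In 4 of the 46 groups of 6 mice tested over the named members, 1 mouse lay far from the others, by Dixon's test at 0.625 of the range, which chance gives in about 1 of 20 groups. Ntn1 was at 0.246 FPKM in CKO 5, against 0.507 in the next lowest CKO. Plxna2 was at 2.97 FPKM in control 6, against 1.32 in the next highest control. Robo1 was at 0.611 FPKM in control 1, against 0.359 in the next highest control, and at 0.0870 FPKM in CKO 5, against 0.463 in the next lowest CKO.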

How the results depend on the processing

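No count of members at the adjusted threshold was above 0 except without control 1, where 3 were higher, and leaving out a mouse gave 0 to 3. Members higher at the unadjusted threshold, 5 in the report, numbered 1 to 10 when a mouse was left out (semaphorins 0 to 4, plexins and neuropilins 0 to 2, netrins and Unc5 receptors 0 to 2, Slits and Robos 0 to 2). Effectors higher numbered 9 (without control 5) to 15, and at the adjusted threshold 1 to 8, the latter without control 1, with 0 to 1 lower. When a mouse was left out, the log2 fold change of Epha4 ran from -0.10 to 0.18 and that of Unc5b from -0.14 to 0.045. The cause of these changes was not tested.

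After median-ratio scaling 1 member was higher and 2 were lower (Eph receptors 1 lower, semaphorins 0 higher and 1 lower, netrins and Unc5 receptors 0 higher, Slits and Robos 0 higher). The median log2 fold change was 0.024 for all members, -0.017 for semaphorins and 0.14 for plexins and neuropilins, and for effectors it was -0.012, with 6 higher and 6 lower. The sign turned for Epha4 (-0.12), Ephb4 (-0.069), Nrp1 (-0.017), Robo4 (-0.12) and Sema6c (-0.017). Quantile normalization gave the same counts of members and families, with 6 effectors higher and 5 lower, and medians of -0.00586 (all members), -0.13 (Eph receptors), -0.020 (semaphorins), 0.10 (plexins and neuropilins) and -0.012 (effectors). The sign turned for Efnb2 (-0.012), Epha4 (-0.17), Ephb4 (-0.089), Robo4 (-0.15) and Sema6c (-0.020). With scaling and without control 1, 3 members were higher and 2 lower (Eph receptors 1 lower, semaphorins 0 higher and 1 lower), with 5 effectors higher, 7 lower and 2 higher at the adjusted threshold. Medians were then 0.014 (all members), -0.0765 (Eph receptors), -0.11 (ephrins), 0.031 (semaphorins), 0.066 (plexins and neuropilins) and -0.0282 (effectors). The sign turned for Efnb2 (-0.19), Epha4 (-0.11), Ephb4 (-0.15), Plxna2 (-0.00399), Robo4 (-0.20) and Sema6c (-0.15).

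With the filter at 1 FPKM, by which Epha3, Sema4c, Sema5a and Slit3 are not tested, 1 member was higher (Eph receptors 0, semaphorins 0, Slits and Robos 0) and the median of netrins and Unc5 receptors was 0.43. Effectors then numbered 1 lower at the unadjusted and 4 higher at the adjusted threshold. The plexin Plxna4 was higher with a pseudocount of 1, without the trend and with the replicate block. Without the trend and without a filter, 0 effectors were lower at the adjusted threshold. The labels do not say whether the replicate numbers pair the mice. Same-numbered mice correlated at -0.09 to 0.16 in their deviations, with a mean of 0.040, against -0.0088 for other pairs. Of the 12 mice, 5 correlated best with their own number. These low correlations do not decide whether the mice were paired. With the replicate block 6 members were higher at the unadjusted threshold, plexins and neuropilins included with 1, and 2 effectors were higher at the adjusted threshold.

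The paper describes a cross that yields both genotypes and compares CKOs with control littermates elsewhere. It does not state which of the 12 sequenced mice shared a litter. P rest on the spread between mice, each taken as independent. FPKM give no read counts, so that the counting error of low members such as Epha3 is unknown, and the filter leaves 27 members without a test. A P above the threshold does not show that a gene was equal in the groups.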
